A study of Mus musculus with 6 samples.

Results

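The 9 genes described here encode the enzymes that write and erase DNA methylation, together with their partners: Dnmt1, Uhrf1, Dnmt3a, Dnmt3b, Dnmt3l, Tet1, Tet2, Tet3 and Tdg. They were chosen by name, and each was found among the 55416 genes of the deposited counts and among the 15746 genes with enough counts to be tested. RNA-seq was performed on epiblast-like cells (EpiLCs) obtained from mouse embryonic stem cells (mESCs), with 3 WT libraries and 3 Oct6 KO libraries taken at 48 h of differentiation. WT EpiLCs came from the parental line 46C, a reporter line in which Sox1 expression turns on GFP. The Oct6 KO cells were 1 clone of that line, made with CRISPR/Cas9, with a homozygous insertion of a single base early in the coding sequence of Oct6 (official symbol Pou3f1), a POU factor of the formative state. Both lines were kept as naïve cells in N2B27 with 2i and LIF and then moved to N2B27 with KSR, bFGF and Activin A on fibronectin. Since the KO group is a single clone, the loss of Oct6 and other differences between the clone and its parent cannot be told apart.

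In mammals, Dnmt1 copies methylation onto the new strand after replication, guided by Uhrf1, which binds hemimethylated CpG sites. Dnmt3a and Dnmt3b place methylation on unmethylated DNA, and Dnmt3l is a catalytically inactive relative that assists them. Tet1, Tet2 and Tet3 oxidise 5-methylcytosine, and Tdg cuts out the most oxidised forms so that base excision repair can restore an unmethylated cytosine. Naïve mESCs in 2i hold little DNA methylation, and the passage to the formative state is known for a rise in the de novo enzymes and in methylation itself. The counts measure mRNA and not methylation, which was not analysed here.

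Libraries held between 10995505 and 14680930 counts, and the 9 genes together took between 3548 and 3968 CPM (edgeR's counts relative to library size, after TMM scaling) in each of them. Markers of the epiblast and formative state were abundant in both groups, with 7 genes (Pou5f1, Sox2, Fgf5, Otx2, Utf1, Lin28a and Sall4) summing to 1715 to 1833 CPM in WT and 1682 to 1792 CPM in KO libraries. This sum is dominated by Pou5f1 (898 ± 60.0 CPM in WT EpiLCs), and 3 of the 7 were higher in KO EpiLCs by the test used below: Otx2 by 1.89-fold, Fgf5 by 1.57-fold and Sox2 by 1.34-fold. Lin28a, Pou5f1, Sall4 and Utf1 had log2 fold changes of −0.20, −0.19, −0.16 and −0.01 and did not pass, so the list moved in both directions. With the replicate number as a block, 5 of the 7 passed. A list of 6 naïve markers (Esrrb, Klf4, Tfcp2l1, Zfp42, Nr0b1 and Tbx3) summed to 185 to 194 CPM in WT and 252 to 319.7 CPM in KO libraries, and 2 of the 6, Esrrb and Zfp42, were higher in KO EpiLCs. Summed markers of primitive endoderm were at 6.11 to 8.06 CPM in WT and 6.17 to 17.4 CPM in KO libraries, and those of mesendoderm, neural cells and fibroblasts were at or below 11.7 CPM in every library. Among these low genes, Gata6 and Pdgfra of primitive endoderm and Eomes of mesendoderm were higher in KO EpiLCs in edgeR, and neural Sox1 and fibroblast Thy1 were lower. Pdgfra was close to the threshold (adjusted p = 0.0991, edgeR) and its groups overlapped. DESeq2 called 1 gene of primitive endoderm, against 2 in edgeR. Markers of two-cell-like cells (Zscan4c, Zscan4d and Zscan4f) ran from 24.5 to 47.9 CPM in WT and from 28.5 to 119 CPM in KO libraries, and all 3 were higher in edgeR and none in DESeq2. The part of these cell states in the values below was not tested, and in bulk RNA a change in the share of cells and a change in the RNA per cell cannot be told apart. Pou3f1 itself was still transcribed, at 142 ± 19.4 CPM (SD, n = 3) in WT and 132 ± 7.59 CPM in KO EpiLCs (log2 fold change −0.10, adjusted p = 0.574, edgeR), so its counts do not check the genotype labels.

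Tet1 and Dnmt1 were higher in Oct6 KO EpiLCs than in WT EpiLCs, by 1.34-fold and 1.18-fold, and Tet3 was lower, at 0.788 of the WT level. The other 6 genes did not pass an adjusted p of 0.1 in the quasi-likelihood test of edgeR, adjusted by Benjamini-Hochberg over the 15746 genes. The threshold is that of the study, which used DESeq2. Over all genes tested in edgeR, 24.3% passed, 11.8% higher and 12.5% lower, so the 3 of 9 genes stand beside a large share of the transcriptome. In DESeq2, Dnmt1 and Tet1 passed an adjusted p of 0.1, against 19.3% of all genes, and Tet3 did not (adjusted p = 0.126, DESeq2). The study also set a cut at an absolute log2 fold change of 1. None of the 9 genes passed both cuts, in edgeR or in DESeq2. Among all 15746 genes tested in edgeR, 6.21% passed both. At an unadjusted p below 0.05 the genes numbered 4 of the 9, against 29.8% of all genes tested. The median absolute log2 fold change of the 9 genes was 0.19, against 0.23 over all genes tested, and the median log2 fold change was 0.09 against 0.00.

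**Figure D1:**
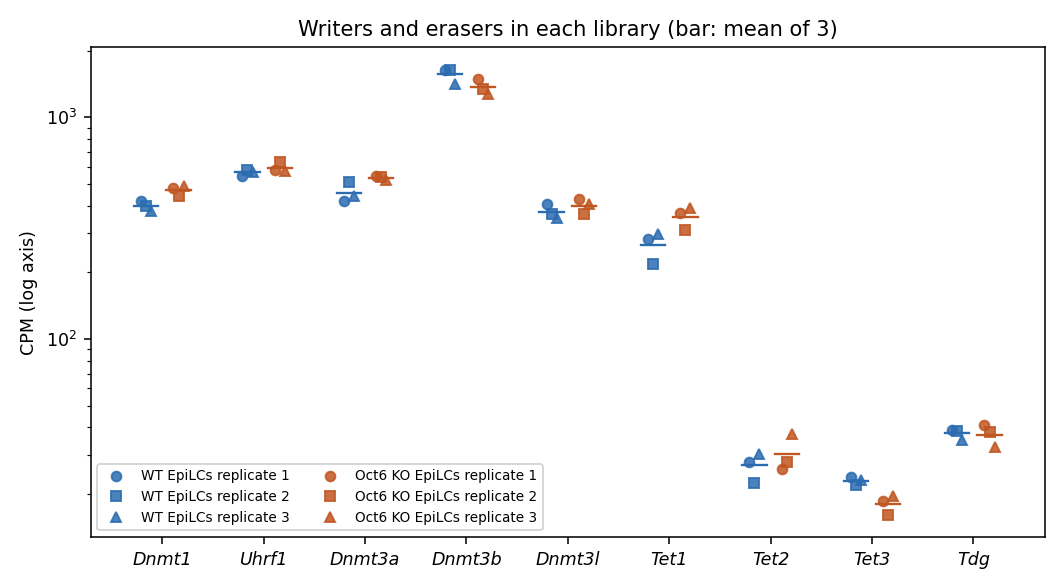
CPM of each of the 9 genes in the 3 WT and 3 Oct6 KO libraries on a log axis, with a bar at the mean of each group and the marker shape giving the replicate number. Dnmt3b stands highest, at 1281 to 1642 CPM, and Tet2, Tet3 and Tdg lowest, at or below 40.8 CPM, while the distance between the groups is small for every gene.

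Replicates were paired according to the study, and libraries with the same number deviated together from their group means, so the values are also given with the replicate number as a block where this changed a call. With the block, 5 of the 9 genes passed, against 30.3% of all genes: Dnmt1, Dnmt3a and Tet1 were higher and Dnmt3b and Tet3 were lower. In CPM, the WT and KO libraries did not overlap for Dnmt1, Dnmt3a, Tet1 and Tet3, which is 4 of 9 genes against 33.7% of all genes tested.

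Dnmt1 (ENSMUSG00000004099.17, GRCm39 chromosome 9, 20817945 to 20871184, minus strand), the maintenance methyltransferase, had 422, 398 and 380 CPM in the WT libraries, replicates 1 to 3 in order here and below, and 478, 441 and 491 CPM in the KO libraries. The groups did not overlap, and the gene was higher in KO in each of the 3 pairs. The means were 400.1 ± 20.8 CPM and 470.3 ± 26.0 CPM (SD, n = 3), a log2 fold change of 0.23 with an SE (standard error) of 0.09 (95% interval 0.04 to 0.43, adjusted p = 0.0945, edgeR). With the replicate block the adjusted p was 0.0326. This call was the closest to the threshold, and it was lost when any 1 of the 6 libraries was left out, with adjusted p from 0.103 to 0.248 and log2 fold changes from 0.20 to 0.28.

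Uhrf1 (ENSMUSG00000001228.15, chromosome 17, 56610275 to 56630489, plus strand), which recruits Dnmt1 to replicated DNA, had 545, 581 and 568 CPM in WT and 577, 628 and 576 CPM in KO libraries. The groups overlapped, and although KO was the higher member of each pair, the log2 fold change was 0.07 (SE 0.09, 95% interval −0.12 to 0.26, adjusted p = 0.657, edgeR). The interval leaves room for a KO level between 0.920 and 1.201 of WT. Per length of annotated exon, the ratio of Uhrf1 to Dnmt1 was 2.08, 2.35 and 2.40 in WT and 1.94, 2.29 and 1.89 in KO libraries. It was lower in KO in each pair, but the groups overlapped.

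Dnmt3a (ENSMUSG00000020661.16, chromosome 12, 3856007 to 3964443, plus strand), a de novo methyltransferase, had 419, 510.4 and 444 CPM in WT and 544, 538 and 521 CPM in KO libraries. The lowest KO library was just above the highest WT library, replicate 2, and the WT libraries spread more widely (SD 47.1 CPM) than the KO libraries (SD 11.8 CPM). The log2 fold change was 0.22 (SE 0.10, 95% interval 0.02 to 0.43, adjusted p = 0.129, edgeR). The gene passed with the replicate block (log2 fold change 0.23, standard error 0.08, adjusted p = 0.0387) and when WT replicate 2 was left out (log2 fold change 0.30, adjusted p = 0.0403).

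Dnmt3b (ENSMUSG00000027478.16, chromosome 2, 153490861 to 153529650, plus strand), the de novo methyltransferase that predominates in the early epiblast, had 1642, 1630.2 and 1418 CPM in WT and 1486, 1341 and 1281 CPM in KO libraries. KO was lower in each of the 3 pairs, while KO replicate 1 lay above WT replicate 3, so the groups overlapped. The log2 fold change was −0.19 (SE 0.10, 95% interval −0.40 to 0.02, adjusted p = 0.206, edgeR). With the replicate block the same difference had an SE of 0.07 and an adjusted p of 0.0550, and it also passed when WT replicate 3 was left out (log2 fold change −0.26, adjusted p = 0.0953).

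Dnmt3a was higher and Dnmt3b lower in KO in all 3 pairs, so their levels lay closer together in KO than in WT EpiLCs. Neither gene passed in the fit without the block. The ratio of Dnmt3b to Dnmt3a, both per length of annotated exon, was 10.8, 8.77 and 8.77 in WT and 7.51, 6.84 and 6.75 in KO libraries, with means of 9.43 ± 1.15 and 7.04 ± 0.412 (SD, n = 3). All 3 KO values were below all 3 WT values, and since both genes are read from the same library this ratio does not depend on the scaling between libraries. Dnmt3b supplied 43.1%, 43.0% and 40% of the summed counts of the 9 genes in WT and 37.5%, 36.2% and 34.1% in KO libraries.

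Dnmt3l (ENSMUSG00000000730.14, chromosome 10, 77877781 to 77899456, plus strand), the inactive partner of the de novo enzymes, had 408, 369 and 353 CPM in WT and 427, 368 and 405 CPM in KO libraries. The groups overlapped and the replicate 2 libraries were almost equal (log2 fold change 0.09, standard error 0.10, 95% interval −0.12 to 0.29, adjusted p = 0.602, edgeR). The ratio of Dnmt3l to Dnmt3a per length was 4.59 ± 0.712 in WT and 4.14 ± 0.309 in KO EpiLCs (SD, n = 3), again with overlap.

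**Figure D2:**
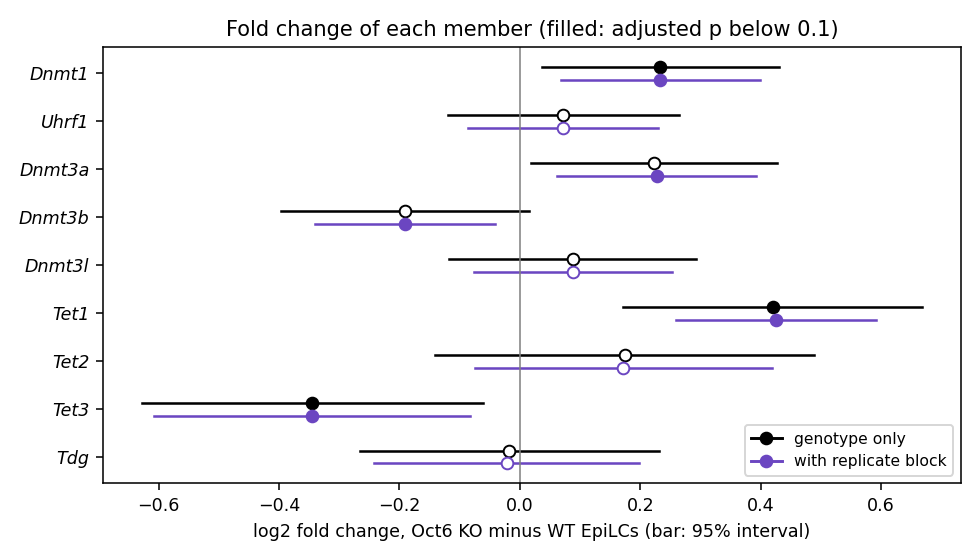
Log2 fold change of each gene, Oct6 KO minus WT EpiLCs, with its 95% interval, from edgeR with genotype as the only term (black) and with the replicate block (purple). Filled circles have an adjusted p below 0.1: Dnmt1, Tet1 and Tet3 in both fits, and Dnmt3a and Dnmt3b with the block, which narrows the intervals and hardly moves the estimates.

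Tet1 (ENSMUSG00000047146.18, chromosome 10, 62640349 to 62744775, minus strand), the main methylcytosine dioxygenase of pluripotent cells, had 284, 218 and 297 CPM in WT and 370.3, 309 and 389 CPM in KO libraries. All 3 KO libraries were above all 3 WT libraries, and in both groups replicate 2 was the lowest, so that the 3 pairs gave close log2 ratios of 0.38, 0.50 and 0.39. The means were 266 ± 42.0 CPM and 356 ± 41.8 CPM (SD, n = 3), with a log2 fold change of 0.42 (SE 0.12, 95% interval 0.17 to 0.67, adjusted p = 0.0168, edgeR). With the replicate block, the SE was 0.08 and the adjusted p 1.91e-04. It was the only one of the 9 genes to pass in each of the 6 fits that left out 1 library, with log2 fold changes from 0.29, without WT replicate 2, to 0.51, without KO replicate 2, and adjusted p of 0.0957 at most.

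Tet2 (ENSMUSG00000040943.13, chromosome 3, 133169436 to 133250900, minus strand), a second dioxygenase, had 28.1, 22.4 and 30.4 CPM in WT and 26.0, 27.9 and 37.5 CPM in KO libraries. The groups overlapped, and the log2 fold change of 0.17 (SE 0.15, 95% interval −0.14 to 0.49, adjusted p = 0.482, edgeR) rested on KO replicate 3, the highest library, without which it was −0.0023.

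Tet3 (ENSMUSG00000034832.16, chromosome 6, 83339355 to 83436066, minus strand), the dioxygenase best known from the zygote and from differentiated tissues, had 23.8, 22.1 and 23.1 CPM in WT and 18.6, 16.1 and 19.7 CPM in KO libraries. Each KO library was below each WT library. The means were 23.0 ± 0.869 CPM and 18.1 ± 1.83 CPM (SD, n = 3), with a log2 fold change of −0.34 (SE 0.14, 95% interval −0.63 to −0.06, adjusted p = 0.0858, edgeR). With the replicate block the adjusted p was 0.0476 in edgeR. In DESeq2 the gene did not pass, with an adjusted p of 0.126, and of 0.204 with the replicate block. The gene passed in 1 of the 6 fits that left out a library, the one without KO replicate 3 (log2 fold change −0.41, adjusted p = 0.0903), and missed the threshold in the other 5, with adjusted p up to 0.298. Its counts were low, 209 to 342 per library, and Bola3, on the opposite strand of the same stretch, had counts equal to 65.3% of those of Tet3. Whether counting used the strand is not given in the sources used here, so reads shared by the pair cannot be told apart.

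The fall of Tet3 was shared by the genes beside it. Of 138 other tested genes within 10 Mb on chromosome 6, 117 had a log2 fold change below 0, 82 passed lower and 3 passed higher, and their median log2 fold change was −0.52, which is 0.696 of the WT level. Tet3 was less reduced than 96 of these 138 neighbours, and minus their median its log2 fold change was 0.18. Over the 773 tested genes of chromosome 6 the median was −0.40, while the other chromosomes that hold members had medians between −0.03 and 0.04. The copy number of chromosome 6 was not measured, and its part in the value of Tet3 was not tested.

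**Figure D3:**
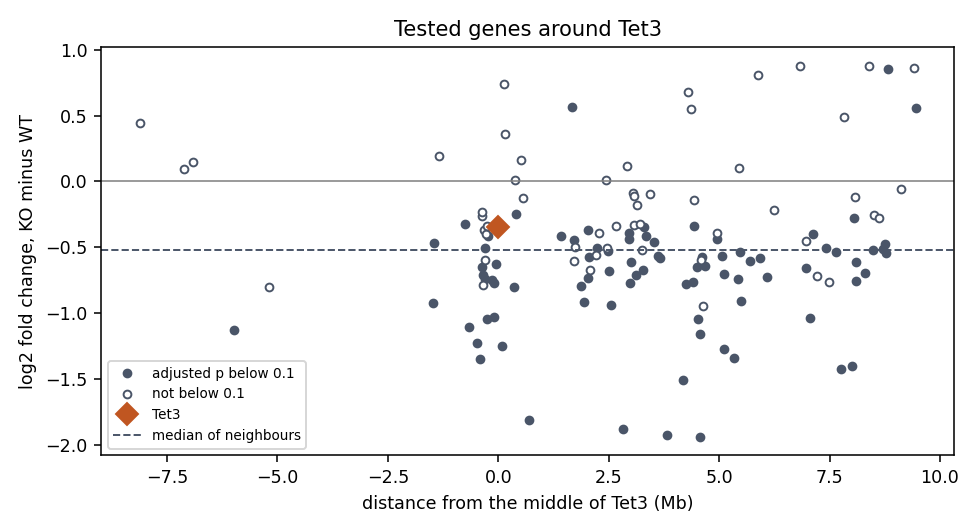
Log2 fold change, Oct6 KO minus WT EpiLCs, of the 138 tested genes within 10 Mb of Tet3, against their distance from the middle of Tet3 in Mb. Filled circles have an adjusted p below 0.1, the orange diamond is Tet3 at −0.34, and the dashed line is the neighbours' median at −0.52, below the diamond.

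Tdg (ENSMUSG00000034674.19, chromosome 10, 82465610 to 82489654, plus strand), the glycosylase that removes oxidised methylcytosine, had 38.96, 38.7 and 35.2 CPM in WT and 40.8, 38.1 and 32.6 CPM in KO libraries. The KO libraries spanned the WT range on both sides. The log2 fold change was −0.02 (SE 0.12, 95% interval −0.27 to 0.23, adjusted p = 0.947, edgeR), which leaves room for a KO level between 0.832 and 1.17 of WT. Uqcc6, on the opposite strand, overlaps Tdg and had 50.6% of its counts.

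Of the TET genes, Tet1 passed higher and Tet3 lower, while Tet2 did not pass. The fall of Tet3 (log2 fold change −0.34) was smaller than the median of its chromosome 6 neighbours (−0.52). Ratios between the TET genes within a library are shown as a description. Tet1 to Tet2, per length, was 11.6, 11.2 and 11.2 in WT and 16.3, 12.7 and 11.9 in KO libraries, without overlap, although KO replicate 3 lay close to the WT range. Tet3 to Tet2 was 0.901, 1.04 and 0.809 in WT and 0.758, 0.613 and 0.558 in KO libraries, again without overlap. The summed level of Dnmt3a and Dnmt3b over that of Tet1, Tet2 and Tet3 was 13.6, 17.5 and 11.4 in WT and 10.2, 10.99 and 8.33 in KO libraries. This ratio mostly sets Dnmt3b (mean 252 per length in WT, Dnmt3a 26.9) against Tet1 (17.2, Tet2 1.52 and Tet3 1.38). Mean Dnmt3a was higher and mean Tet3 lower in KO, which goes against the direction of the ratio. Every KO library had a lower ratio of de novo to TET mRNA than every WT library, with means of 9.85 ± 1.37 and 14.2 ± 3.09 (SD, n = 3). The groups were close, with the highest KO value at 10.99 and the lowest WT value at 11.4. Tet1 made up 5.76% to 8.36% of the summed counts of the 9 genes in WT and 8.34% to 10.4% in KO libraries.

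**Figure D4:**
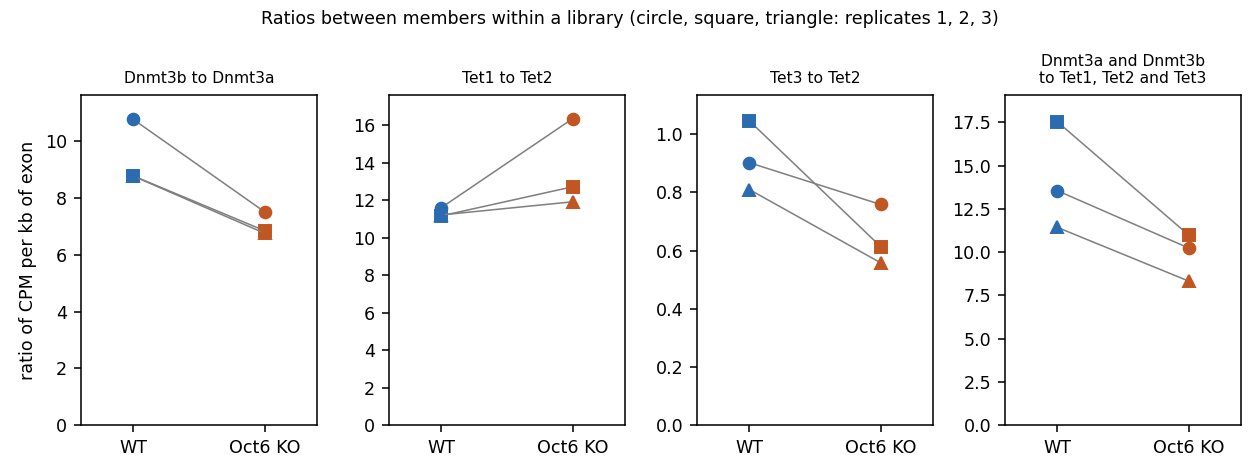
Ratios between genes within each library, from CPM per kb of annotated exon, with grey lines joining WT and Oct6 KO libraries of the same replicate number. Dnmt3b to Dnmt3a, Tet3 to Tet2 and de novo to TET mRNA are lower in KO in each of the 3 pairs, and Tet1 to Tet2 is higher in each.

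Per length of annotated exon the order of the genes was the same in both groups, on the scale of CPM per kb. Dnmt3b stood first, at a mean level of 252 in WT and 221 in KO EpiLCs, and its partner Dnmt3l second, at 122 and 130.0. The maintenance genes followed, with Uhrf1 at 107.0 and 112 and Dnmt1 at 47.1 and 55.3. Dnmt3a, at 26.9 and 31.4, stood between them and Tet1, at 17.2 and 23.0, so the most abundant eraser was below every writer. Tdg (3.99 and 3.94), Tet2 (1.52 and 1.72) and Tet3 (1.38 and 1.09) closed the order. Neighbours in this order did not overlap between their 3 libraries, with the exception of Tet2 and Tet3 in WT EpiLCs. With the length of the canonical transcript instead, an alternative chosen after seeing the data, Tet3 (3.87) stood above Tet2 (2.75) in WT, so the order of these last genes depends on the length chosen. Among the 15746 genes tested, Dnmt3b was 165th, Dnmt3l 310th and Uhrf1 359th by mean level per length, against 7285th for Tdg, 10302nd for Tet2 and 11104th for Tet3. Gene counts do not separate isoforms, such as the long and short forms of Dnmt3a or the inactive forms of Dnmt3b.

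For the 3 genes that passed, the sequence before their annotated starts is shown with its CpG sites, the kind of site on which these enzymes act. Whether the sites shown are methylated, or are acted on in these cells, was not measured. RefSeq windows of 250 bases before a start were found for all 9 genes, 16 windows in all, and each was located once in GRCm39. They held between 2 and 51 CpG sites, the most in the window of Tet2, against a median of 15 over the 13674 windows of 10735 genes tested. The stretches below end at the base before the start, are written 5′ to 3′ on the gene's strand with CpG sites in capitals, and stop where another annotated exon of the same gene begins. Dnmt1 has 3 RefSeq starts, and the furthest upstream (chr9:20871185-20871434, minus strand, 2 CpG sites) and the furthest downstream (chr9:20863920-20864003, 7 CpG sites, from a window with 26) are shown. Those of Tet1 (chr10:62723104-62723191, minus strand, 6 CpG sites, from a window with 15) and Tet3 (chr6:83418661-83418910, minus strand, 17 CpG sites) belong to their only RefSeq start, which lies inside the GENCODE gene in both. The stretch of Tet3 overlaps the lncRNA B230319C09Rik on the opposite strand.
Dnmt1 first start: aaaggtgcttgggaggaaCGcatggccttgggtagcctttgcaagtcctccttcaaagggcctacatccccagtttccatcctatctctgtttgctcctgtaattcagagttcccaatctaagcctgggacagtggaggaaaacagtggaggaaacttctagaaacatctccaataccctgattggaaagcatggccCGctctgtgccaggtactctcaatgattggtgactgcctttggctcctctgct
Dnmt1 last start: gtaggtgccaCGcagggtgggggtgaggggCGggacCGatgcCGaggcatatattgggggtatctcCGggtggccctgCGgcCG
Tet1: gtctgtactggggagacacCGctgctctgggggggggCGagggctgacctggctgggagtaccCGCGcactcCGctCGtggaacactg
Tet3: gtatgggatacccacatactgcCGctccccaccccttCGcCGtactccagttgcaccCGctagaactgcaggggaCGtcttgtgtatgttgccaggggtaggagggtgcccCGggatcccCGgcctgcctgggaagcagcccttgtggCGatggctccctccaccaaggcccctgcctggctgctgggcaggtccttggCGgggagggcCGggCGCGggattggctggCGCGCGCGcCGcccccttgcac

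The windows were also searched on both strands for the octamer ATGCAAAT, the classical sequence bound by POU factors, whose reverse complement is ATTTGCAT. None of the 16 windows held it, and 181 of the 13674 windows, 1.32%, did. At so low a share, 16 windows are too few for its absence to set the members apart from other genes. Which start these cells use was not measured.

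Genes that work with the writers and erasers were read from the same fit, in lists of 54 genes in all, of which 7 were higher and 5 lower in Oct6 KO EpiLCs and 18 passed with the replicate block. The 12 genes that passed compare with 24.3% of all genes tested, and 4 of them, Zbtb4, Prdm14, Sycp3 and Asz1, had an absolute log2 fold change of 1 or more, against 6.21%. The median log2 fold change of the lists was 0.05.

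Of 5 partners of maintenance methylation, 2 were higher and none lower. Usp7, a deubiquitinase that binds Dnmt1 and Uhrf1, had 668, 671 and 682 CPM in WT and 1176, 1142 and 1118 CPM in KO libraries, a log2 fold change of 0.77 (SE of 0.09 and adjusted p = 9.61e-06, edgeR). It lies on chromosome 16, where the genes within 10 Mb of it had a median log2 fold change of 0.52, and the part of that shift in its value was not tested. Hells, the chromatin remodeller needed for methylation of repeats, had 819.7, 696 and 1020.4 CPM in WT and 1169, 1202 and 986 CPM in KO libraries, which overlapped (log2 fold change 0.40, standard error 0.12, adjusted p = 0.0252, edgeR), and it missed the threshold without WT replicate 2 (adjusted p = 0.113).

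Among 7 readers of methylated CpG, Zbtb38 was higher (31.0 ± 3.06 CPM in WT and 38.95 ± 1.90 CPM in KO EpiLCs, adjusted p = 0.0593) and Zbtb4 lower (3.93 ± 0.895 and 1.85 ± 0.502 CPM, log2 fold change −1.08, adjusted p = 0.0177). Zbtb38 passed in only 2 of the 6 fits that left out a library, and missed the threshold with no filter (adjusted p = 0.111, edgeR). Among 5 TET partners and enzymes of alpha-ketoglutarate supply, the cofactor of the dioxygenases, Idh2 was higher (96.4 ± 15.1 and 128 ± 11.3 CPM, log2 fold change 0.41, adjusted p = 0.0166). Cxxc4, which binds Tet2, was higher from a low level (1.13 ± 0.272 and 2.21 ± 0.529 CPM, adjusted p = 0.0818, edgeR) and passed in 2 of the same 6 fits. It did not pass in DESeq2 (adjusted p = 0.188) or with no filter (adjusted p = 0.12, edgeR). Its relative Cxxc5 was lower (22.3 ± 1.65 and 15.2 ± 2.55 CPM, log2 fold change −0.55, adjusted p = 0.0132, edgeR). All SD are over n = 3.

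No gene passed in edgeR among 11 of base excision repair, 5 of the S-adenosylmethionine cycle, which supplies the methyl group, 6 histone methyltransferases that steer the de novo enzymes and 3 genes that protect imprints. At an unadjusted p below 0.05 these lists held 0, 1, 0 and 1 genes (29.8% of all genes), in DESeq2 0 in each (19.3% of all genes), and with the replicate block 1, 1, 0 and 3 (30.3% of all genes). The 3 with the block were Zfp57, Zfp445 and Trim28, the zinc finger proteins and corepressor that keep imprinted regions methylated, with log2 fold changes of 0.27, 0.25 and 0.20 before it.

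Of 3 regulators of the machinery in naïve cells, Prdm14, a factor known to hold down the de novo methyltransferases in naïve mESCs, was higher in KO EpiLCs. It had 0.0746, 0.639 and 0.812 CPM in WT, which is 1, 7 and 12 counts, and 1.78, 3.16 and 4.59 CPM in KO libraries. The log2 fold change was 2.62 (SE of 0.51 and adjusted p = 0.0011, edgeR), and it passed in each of the 6 fits that left out a library. The other 2, Dppa3 and Tfap2c, did not pass.

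Of 9 germline genes whose promoters are methylated in somatic cells, 1 was higher and 3 were lower. Tex19.1 had 69.2 ± 4.09 CPM in WT and 112 ± 12.2 CPM in KO EpiLCs (log2 fold change 0.69, adjusted p = 1.13e-04, edgeR). Sycp3, of the meiotic chromosome axis, had 21.98 ± 4.38 and 10.3 ± 0.685 CPM (log2 fold change −1.10, adjusted p = 1.05e-04). Slc25a31, a germline ADP/ATP carrier, had 23.1 ± 2.44 and 13.5 ± 3.21 CPM (log2 fold change −0.78, adjusted p = 0.00254). Asz1, of the piRNA pathway, had 9.88 ± 1.44 and 3.38 ± 0.778 CPM (log2 fold change −1.55, adjusted p = 6.99e-05), and it lies on chromosome 6 among neighbours with a median log2 fold change of −0.54, whose part in it was not tested. These germline genes thus moved in both directions, and the 4 that passed did so in each of the 6 fits that left out a library.

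**Figure D5:**
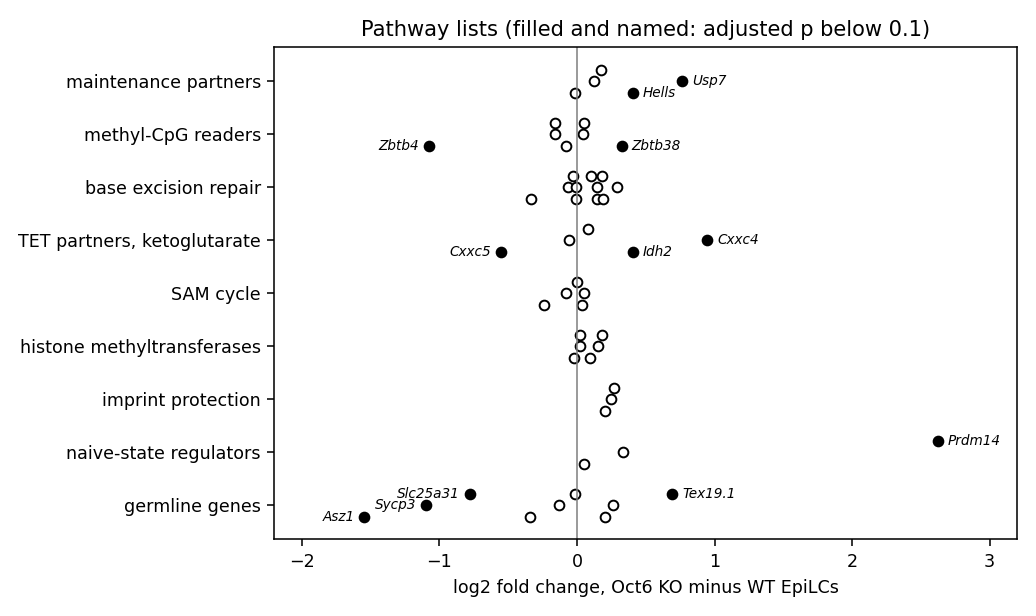
Log2 fold change, Oct6 KO minus WT EpiLCs, of the 54 tested genes of 9 lists around DNA methylation, 1 circle per gene. Filled and named circles have an adjusted p below 0.1, and they run from Asz1 at −1.55 to Prdm14 at 2.62, while most open circles lie near 0.

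The genes whose log2 CPM followed each called member most closely over the 6 libraries were Det1 (Pearson r = 0.994) and Sirt7 (0.992) for Dnmt1, E130307A14Rik (0.998) and Gm37254 (0.992) for Tet1, and Anxa3 (0.998) for Tet3. These are among the highest of 15746 values over the same 6 libraries, which include the difference between the groups, and they are given as a description.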

How the data were processed

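RNA was extracted from 3 WT and 3 Oct6 KO EpiLC cultures, and libraries were prepared with a stranded total RNA kit. The authors trimmed the reads with Fastp, aligned them to GRCm39 with STAR and deposited raw counts per Ensembl gene, 1 column per library, with no other columns of per-sample values (0 unused). The annotation release, the strand setting and the treatment of reads with several matches are not given in the sources used here. Symbols and positions were taken from GENCODE M39, which matched 54749 identifiers and missed 667 that held 0.0602% of the counts.

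Counts were tested in R 4.3.3 with edgeR 4.0.16: TMM normalization, filterByExpr with a minimum count of 10, and the quasi-likelihood test on a model of genotype alone. P was adjusted by Benjamini-Hochberg over 15746 genes and called below 0.1, the threshold that the study used with DESeq2. The biological coefficient of variation was 11.7%, and 1 count was worth 0.0676 to 0.0913 CPM. Levels per length used the union of annotated exons. No pair of libraries within a group was a copy (chi-square per degree of freedom 6.87 to 11.7). Deviations from the group means over 15746 genes had correlations of 0.198, 0.232 and 0.105 between libraries of the same number. Between different numbers the correlations were −0.181 to −0.0189. Deviations within a group cancel by construction, so positive values for the same number force the others to be negative on average. The negative values are therefore not separate evidence of pairing. The series text calls the replicates paired, and with the positive values the numbers were taken as pairs. What a replicate number shared beyond that is not stated, and p-values measure the spread between these cultures of 1 parental line and 1 clone. RefSeq promoter sequences, from a table built on GRCm38.p6, were placed on GRCm39 by exact match.

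The members and the lists were chosen with earlier results of these data known. All members are named, as are list genes called at that threshold, the other genes of the lists being given by counts save those named where a count needed them, the targeted gene, and for each called member the 2 genes most like it, of which 1 is not reported here. Alternatives were DESeq2 1.42.0, other scalings and filters, the replicate block, a threshold of 0.05, each library left out in turn, the median of neighbouring genes subtracted, and chromosomes 6 and 16 left out. The code was tested on simulated counts.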

Additional observations from a re-analysis of the deposited data

How the results depend on the processing

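The count of 3 genes called, 2 higher and 1 lower, depended on the setting. With every gene that had a count kept (no filter), and with chromosomes 6 and 16 left out, which removes Tet3 from the fit, 1 gene was called, higher, and 0 lower. At an adjusted p below 0.05 the count was also 1, higher, with 0 lower. The gene was Tet1 in each of these settings. With library totals alone 1 was higher, Dnmt1 being lost, and 1 lower. DESeq2 called 0 lower, Tet3 being lost. With the replicate block, which fits the paired design, edgeR called 5 genes, 3 higher and 2 lower, and DESeq2 called 4, without Tet3. With each library left out in turn, 1 to 2 genes were called, 1 to 2 higher and 0 to 1 lower. The block changed the calls of Dnmt3a and Dnmt3b and of no other member.

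RLE size factors and a minimum of 10 counts in every library gave the same 3 genes. Of the 125 values of single members under alternatives with a test, 99 kept their direction and side of the threshold, 6 newly passed, 17 no longer passed and 3 turned sign. Those 3 were Tet2 without KO replicate 3 (−0.0023, in a range up to 0.27 over the 6 libraries left out) and Tdg without WT replicate 1 (0.0067) and without KO replicate 3 (0.071, in a range from −0.092). With the median of neighbours subtracted, a value with no test, 2 of 9 turned sign, Tet3 (0.18) and Tdg (0.04). The cause was not tested. The lists' count of 12 ran from 10 to 16 with a library left out. With 3 libraries a group, the standard errors of the 9 genes were 0.09 to 0.15 on the log2 scale. Differences well above the standard error could still miss the threshold, as for Dnmt3a (log2 fold change 0.22, SE 0.10, adjusted p = 0.129, edgeR).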
